A study of Mus musculus with 3 samples.

Results

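Genes that interferons switch on, together with the interferon regulatory factors (IRFs), were followed in skeletal muscle with and without the transcription factor gene Foxo1. The set was given by name and held 43 genes: immunity-related GTPases, guanylate-binding proteins, IRF and STAT factors, RNA sensors, antiviral effectors and the Ifitm membrane proteins. Of these, 41 had a probe (51 probes in all) and 39 passed the filter on dim probes, out of 32395 genes on the arrays and 17460 genes tested. The 4 members with no test were Mx1 and Mx2, antiviral dynamin-like GTPases to which no probe was matched and which were not analysed here, Oas3, which was not well above background on any array, and Ifi44, which was well above background on arrays 1 and 2 only.

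RNA came from the lower-limb muscle of male C57BL/6 mice. The control mice were labelled as untreated. The mFoxO1KO mice carried an inducible deletion of FoxO1 specific to skeletal muscle. Both genotypes received doxycycline at 0.625 g/kg in their AIN93G diet, starting at 8 weeks and ending at 14 weeks of age, so the drug was common to both groups. The promoter that drove the deletion is not given in the sources used here. There were 3 biological replicates of each genotype, and each of the 3 two-colour Agilent arrays carried 1 control sample in Cy3 and 1 mFoxO1KO sample in Cy5. No array had the dyes swapped, so a dye effect of a probe and an effect of genotype cannot be told apart. Samples are numbered here by their array.

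Interferons are secreted proteins that act through cell-surface receptors, Janus kinases and STAT factors. Type I interferons act through a complex that holds STAT2 and IRF9 and binds the interferon-stimulated response element, while interferon gamma acts through the gamma-activated site and raises Irf1, whose protein then acts on further genes. The immunity-related GTPases and guanylate-binding proteins are classical targets of interferon gamma and attack the vacuoles of intracellular pathogens, whereas the Ifit, Oas, Isg15 and Rsad2 genes are classical targets of type I interferons. FoxO1 is a forkhead factor that in muscle is known for its control of fuel use and protein breakdown.

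The 250 bases before the start site are shown for 6 members whose values the results turn on, namely 4 immunity-related GTPases, the factor Irf1 and the type I target Ifit1. They are RefSeq sequences of GRCm38.p6, written 5′ to 3′ on the gene's strand, at Igtp chr11:58199306-58199555 on the plus strand, Irgm1 chr11:48871421-48871670 on the minus strand, Irgm2 chr11:58214727-58214976 on the plus strand, Tgtp2 chr11:49064213-49064462 on the minus strand, Irf1 chr11:53769764-53770013 on the plus strand and Ifit1 chr19:34640639-34640888 on the plus strand. Capitals mark matches, on either strand, to the core of the response element (a pair of GAAA separated by 2 bases of any kind) or to the gamma-activated site (TTCNNNGAA).
Igtp: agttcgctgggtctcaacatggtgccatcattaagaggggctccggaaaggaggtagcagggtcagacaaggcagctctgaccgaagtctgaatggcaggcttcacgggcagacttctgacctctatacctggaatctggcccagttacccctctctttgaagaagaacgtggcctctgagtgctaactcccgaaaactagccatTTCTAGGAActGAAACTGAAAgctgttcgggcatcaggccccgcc
Irgm1: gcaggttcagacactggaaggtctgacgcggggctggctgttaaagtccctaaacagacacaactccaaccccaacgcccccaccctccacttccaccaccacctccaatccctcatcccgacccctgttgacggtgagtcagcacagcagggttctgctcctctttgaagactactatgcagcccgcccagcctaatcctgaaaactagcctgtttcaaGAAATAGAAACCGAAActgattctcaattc
Irgm2: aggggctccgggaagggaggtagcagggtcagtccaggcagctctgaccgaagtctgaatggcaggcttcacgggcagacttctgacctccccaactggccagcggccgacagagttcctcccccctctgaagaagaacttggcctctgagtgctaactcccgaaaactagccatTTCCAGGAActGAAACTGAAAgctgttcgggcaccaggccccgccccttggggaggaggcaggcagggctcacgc
Tgtp2: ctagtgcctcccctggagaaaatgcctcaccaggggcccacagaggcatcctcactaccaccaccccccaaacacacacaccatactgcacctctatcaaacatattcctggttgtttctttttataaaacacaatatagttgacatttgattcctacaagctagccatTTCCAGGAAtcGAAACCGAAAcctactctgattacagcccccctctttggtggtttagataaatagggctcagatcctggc
Irf1: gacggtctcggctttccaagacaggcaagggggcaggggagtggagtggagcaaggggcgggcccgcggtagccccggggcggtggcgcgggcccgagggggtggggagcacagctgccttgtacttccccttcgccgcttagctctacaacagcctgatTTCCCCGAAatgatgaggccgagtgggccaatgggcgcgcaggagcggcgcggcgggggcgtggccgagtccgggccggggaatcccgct
Ifit1: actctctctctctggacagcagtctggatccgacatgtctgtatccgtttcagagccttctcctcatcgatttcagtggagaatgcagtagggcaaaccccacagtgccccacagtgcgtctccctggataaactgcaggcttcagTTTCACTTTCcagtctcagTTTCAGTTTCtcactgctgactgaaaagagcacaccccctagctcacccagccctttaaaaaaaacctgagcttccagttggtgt

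Igtp, Irgm2 and Tgtp2 carried the gamma-activated site next to the response element core, at -45 and -34, -75 and -64, and -81 and -70 bases from the start site. Irgm1 had overlapping cores at -30 and -24. Irf1 had the gamma-activated site alone, at -90, and Ifit1 had cores on the minus strand at -104 and -85. Over windows of 300 bases (250 before and 50 after the start), searched on both strands, the response element core was found in 20 of the 35 members with a window (57.1%) against 3.99% of 27025 genes. TTCNNNGAA was found in 13 of 35 (37.1%) against 9.55%. The forkhead motif GTAAACA was found in 3 of 35 (8.57%; Gbp3, Ifitm1 and Rsad2) against 4.05%. These are letter matches and not measured binding, and the windows of 8 members were not in the table used here.

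The level of Foxo1 was lower in each mFoxO1KO sample than in the control of its array, with log2 ratios of -1.50, -2.42 and -2.27 (limma, adjusted p = 0.0278). The control sample of array 1 had a log2 Foxo1 level of 11.33 against 12.58 and 12.23 in the other controls. All 10 skeletal muscle markers were measured. The share of spots well above background was 52% to 55.9% for control RNA and 56.1% to 56.9% for mFoxO1KO RNA, with no saturated spot. Of the 17460 genes, 481 (2.75%) passed an adjusted p of 0.05 in limma's fit, 359 higher and 122 lower in mFoxO1KO muscle. With median centring in place of loess the split was 1154 higher and 51 lower, with the median of all genes at 0.16.

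None of the 39 tested members passed that threshold (limma, 0 of 39, against 2.75% of all genes in either direction, 0.699% lower and 2.06% higher). At an unadjusted p under 0.05 there were 14, 10 with lower and 4 with higher values in mFoxO1KO muscle, a share of 35.9% against 26.8% of all genes. The smallest adjusted p was 0.0735, for Isg20. The count changed with the setting. It was 6 with median centring (Gbp3, Gbp4, Ifit1 and Tgtp2 lower, Ifitm2 and Isg20 higher), or 15.4% against 6.9% of all genes. It was 3 with scale normalisation between arrays (Gbp4 and Tgtp2 lower, Isg20 higher), or 7.69% against 4.75%. With the separate channels and the array as a replicate block it was 2 (Irf5 and Isg20 higher), or 5.13%, below the 9.44% of all genes. Without array 1 it was 3, all lower (Tgtp2, Gbp4 and Gbp3), or 7.69% against 2.32%. Without array 2 it was 0, against 0.281% of all genes, and without array 3 it was 0, against 0.899%.

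The members' ratios differed by array more than they shared a level. For arrays 1, 2 and 3 their median log2 ratios of mFoxO1KO over control were -0.97, -0.00 and -0.16, with all genes at 0.02, -0.00 and 0.01. On array 1, 19 of 39 members were more than 2-fold lower in the mFoxO1KO channel, against 0.659% of all genes. On array 2 there were 0 of 39 (0.2% of all genes), and on array 3 there was 1 (Tgtp2; 0.16% of all genes). The ratio was below 0 on all 3 arrays for 20 members (51.3%, against 24.5% of all genes) and above 0 on all 3 for 6 (15.4%, against 27.9%). The median of the mean ratios was -0.31, against 0.01 for all genes, and -0.11 without array 1.

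**Figure D1:**
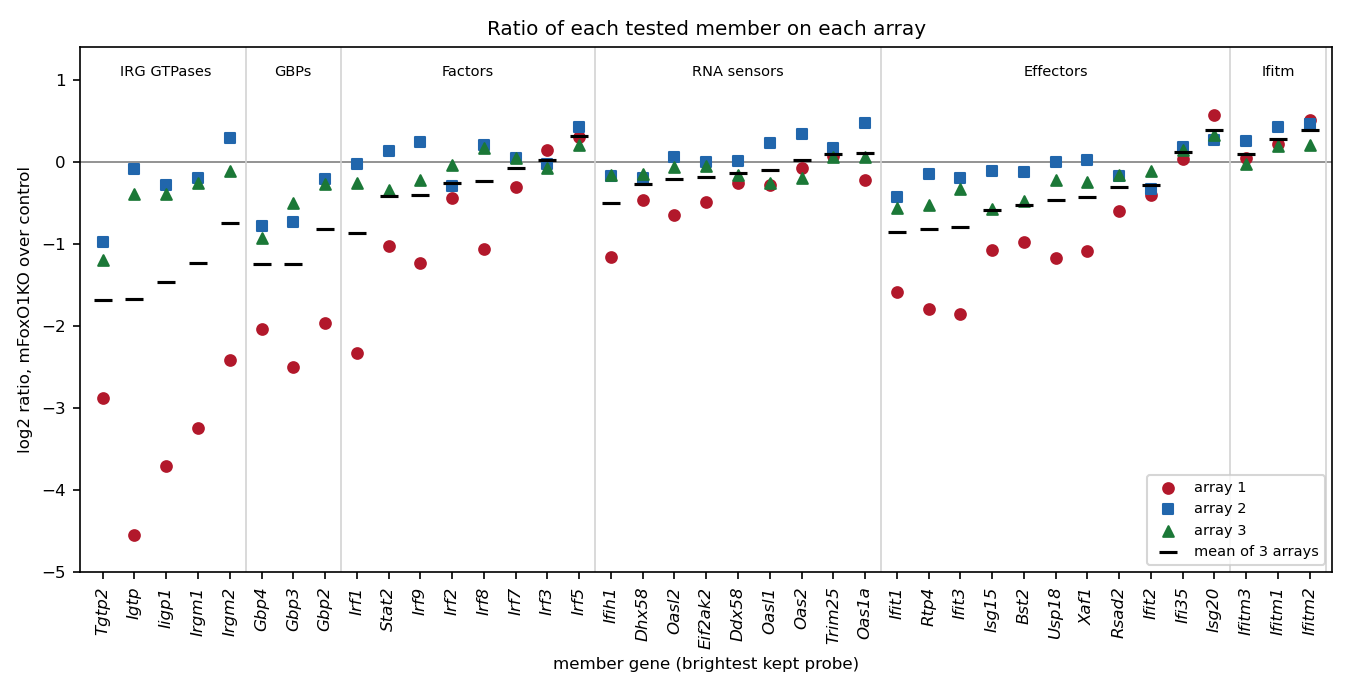
Log2 ratio of mFoxO1KO over control (y axis) for the 39 tested members (x axis), grouped by role and ordered by mean, with 1 point per array and a bar at the mean of 3 arrays. The array 1 points reach -4.55 (Igtp), while the array 2 and array 3 points lie between -1.20 and 0.48.

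The sample that set array 1 apart was its control. Levels within a channel, given below as log2 after normalisation across arrays, were highest in control 1 for 31 of 39 members. Control 1 was more than 2-fold above both other controls for 15 of 39 members, against 0.395% of all genes, and neither control 2 nor control 3 was so for any member. The median SD over the 3 controls was 0.37 for the members and 0.11 for all genes. In the mFoxO1KO channel it was 0.25 and 0.10. All 3 mFoxO1KO levels lay below all 3 control levels for 9 members (23.1%, against 11.8% of all genes): Gbp3, Gbp4, Ifit1, Rtp4, Usp18, Rsad2, Ifih1, Dhx58 and Irf2. They lay above for 3 (7.69%, against 14% of all genes): Isg20, Irf5 and Ifitm1.

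**Figure D2:**
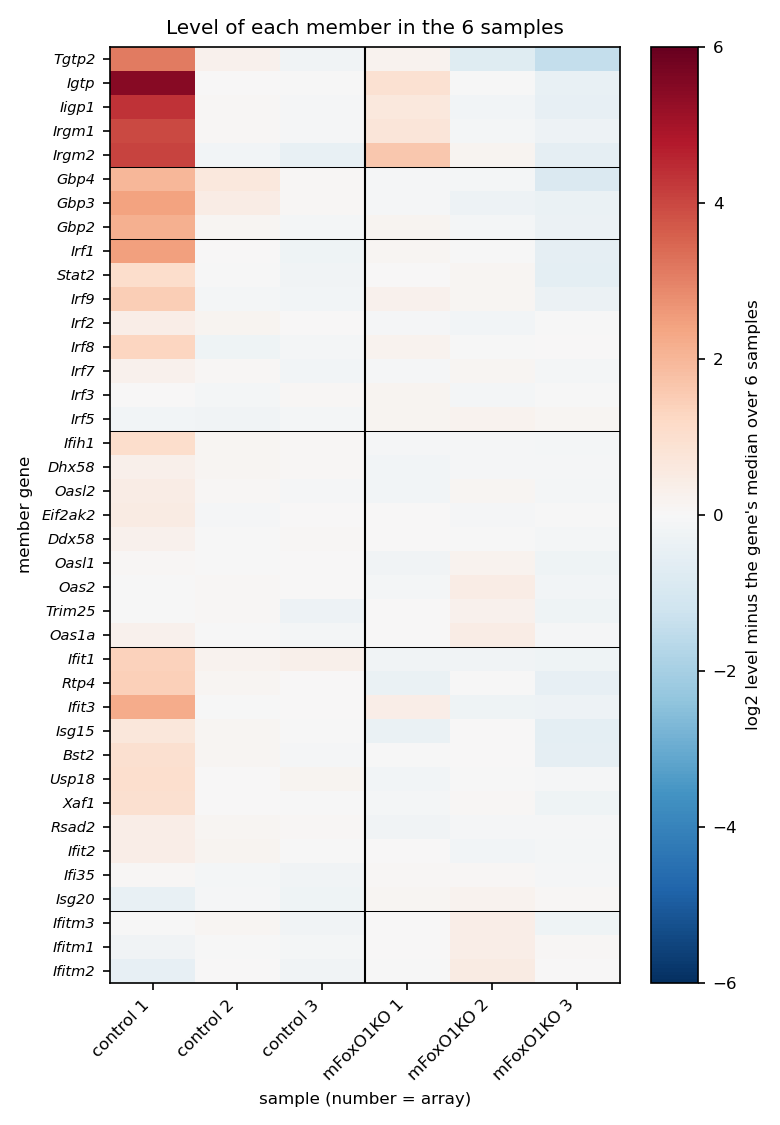
Log2 level of each tested member in each of the 6 samples, shown as the difference from that gene's median over the samples (colour), with members in rows by role. The control 1 column holds the dark cells of the immunity-related GTPases, and the mFoxO1KO 1 column is above 0 for the same 5 genes.

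The 5 immunity-related GTPases showed the widest spread. Igtp (also known as Irgm3), a regulatory member of the family, had raw spot intensities of 46206, 1169 and 1016 in controls 1, 2 and 3 and of 3342, 1574 and 1339 in mFoxO1KO samples 1, 2 and 3. Control 1 was thus far above the other samples, 43.4-fold above the next control after normalisation. The mFoxO1KO sample of array 1 was the next highest, 1.96-fold above the next mFoxO1KO sample. The log2 ratios were -4.55, -0.09 and -0.39, with a mean of -1.68 ± 2.497 (SD, n = 3 arrays; limma, adjusted p = 0.306), and without array 1 the mean was -0.24. The second lowest ratio of all genes on array 1 was that of Igtp, and on array 2 it stood at place 5381 from the lowest.

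Iigp1, an effector GTPase that coats pathogen vacuoles, had intensities of 3396, 206.5 and 166.5 in the controls and of 414, 202.5 and 160.5 in the mFoxO1KO samples. Its log2 ratios were -3.71, -0.28 and -0.40, and a second probe gave -4.89, -0.09 and -0.30. Both probes placed control 1 far above the other controls, by 19-fold on the brighter one, whose mean of -1.46 was -0.34 without array 1. Irgm1, a regulatory GTPase of the family, had intensities of 9631, 726 and 600.5 in the controls and of 1678, 880 and 831 in the mFoxO1KO samples. Its ratios were -3.24, -0.20 and -0.26, with -2.89, -0.07 and -0.04 from a second probe. The probes of Irgm1 therefore ordered the controls alike, and the mean of -1.23 was -0.23 without array 1.

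Irgm2, the neighbour of Igtp on chromosome 11 and another regulatory GTPase, had intensities of 36291, 2152 and 1663 in the controls and of 11802, 3855 and 2725 in the mFoxO1KO samples. Here the mFoxO1KO sample of array 1 stood apart too, 2.82-fold above the next mFoxO1KO sample, which 0.0974% of all genes matched at over 2-fold. The log2 ratios were -2.41, 0.29 and -0.11, and the mean turned from -0.75 to 0.09 without array 1. All 5 immunity-related GTPases had their highest mFoxO1KO level in sample 1.

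Tgtp2, a T-cell-specific GTPase of the same family, had the lowest mean ratio of the members. Its intensities were 9795, 1472 and 989 in the controls and 2185.5, 1052 and 711 in the mFoxO1KO samples. The log2 ratios were -2.88, -0.98 and -1.20, with a mean of -1.69 ± 1.04 (SD, n = 3 arrays; 95% interval -2.69 to -0.68; limma, adjusted p = 0.0858). Without array 1 the mean was -1.09 and the adjusted p was 0.0214 in limma. The mFoxO1KO sample of array 1, at a log2 level of 10.76, was as high as control 2 at 10.78, so the groups overlapped. Tgtp2 and its near-identical copy Tgtp1 may share signal, and Tgtp1 was not tested.

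The guanylate-binding proteins, large GTPases that act on pathogen membranes, were lower in the mFoxO1KO channel of each array. Gbp4 had log2 levels of 10.68, 9.35 and 8.75 in the controls and 8.64, 8.57 and 7.82 in the mFoxO1KO samples. The groups did not overlap, and control 1 was the highest sample. The ratios were -2.04, -0.78 and -0.93, with a mean of -1.25 ± 0.69 (SD, n = 3 arrays; limma, adjusted p = 0.0747), and without array 1 the mean was -0.85 with an adjusted p of 0.0265.

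Gbp3 had control levels of 10.66, 8.67 and 8.32 and mFoxO1KO levels of 8.17, 7.94 and 7.82, again without overlap. Its ratios were -2.50, -0.73 and -0.50, with a mean of -1.24 ± 1.095 (SD, n = 3 arrays; limma, adjusted p = 0.146), and without array 1 the mean was -0.61 with an adjusted p of 0.0491. Gbp2 overlapped between the groups, with levels of 11.07, 9.05 and 8.86 in the controls and 9.11, 8.85 and 8.58 in the mFoxO1KO samples, and ratios of -1.96, -0.21 and -0.28. Its mean of -0.81 was -0.24 without array 1. Tgtp2, Gbp4 and Gbp3 were the members with limma calls once array 1 was left out, in a fit that rested on arrays 2 and 3 only. Without array 2 their adjusted p was 0.187, 0.178 and 0.303 (limma). Without array 3 it was 0.114, 0.103 and 0.133 (limma).

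**Figure D3:**
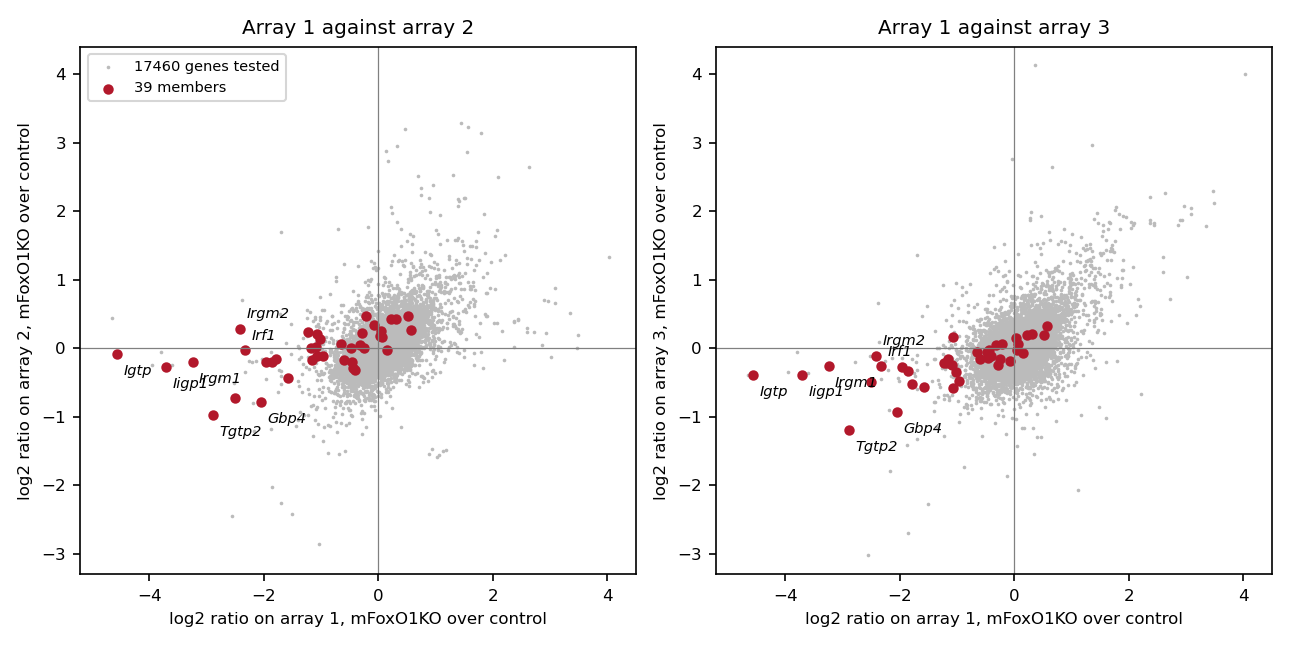
Log2 ratio of mFoxO1KO over control on array 1 (x axis) against array 2 (left) and array 3 (right), for 17460 genes (grey) and the 39 members (red). Igtp, Iigp1 and Irgm1 lie far left near 0 on the y axis, and Tgtp2 and Gbp4 lie low on both axes.

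Among the 8 measured factors, Irf1, the factor that interferon gamma induces, had intensities of 5587.5, 1132 and 848 in the controls and of 1841, 1593.5 and 1210 in the mFoxO1KO samples. Control 1 was 5.37-fold above the next control after normalisation, and the other samples had log2 levels of 9.86 to 10.51. The ratios were -2.32, -0.03 and -0.26, with a mean of -0.87 (limma, adjusted p = 0.296) that was -0.15 without array 1. Stat2 and Irf9, parts of the type I complex, had ratios of -1.02, 0.13 and -0.34 and of -1.23, 0.24 and -0.22. Irf8, a factor of myeloid cells, had -1.06, 0.21 and 0.17. These 3 genes were thus low on array 1 and near or above 0 on array 2.

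Irf5, a factor downstream of Toll-like receptors, went the other way. Its log2 levels were 7.29, 7.22 and 7.34 in the controls and 7.60, 7.64 and 7.55 in the mFoxO1KO samples, with no overlap and no sample apart. The ratios were 0.31, 0.42 and 0.21, with a mean of 0.31 ± 0.11 (SD, n = 3 arrays; limma, adjusted p = 0.0784; with the array as a replicate block, 0.0241), and the processed signals gave 0.57. With separate channels and no replicate block the adjusted p of Irf5 was 0.0805 in limma. It was under 0.05 in 1 of the 16 alternative settings that held the gene. Irf2, which can repress interferon targets, had -0.44, -0.30 and -0.03. Irf3 and Irf7, which switch on the interferon genes themselves, had 0.15, -0.02 and -0.07 and -0.31, 0.05 and 0.05, and their groups overlapped.

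The 9 RNA sensors and RNA-activated enzymes were closer to 0, with array 1 medians of -0.28. Ifih1 (MDA5), a sensor of long double-stranded RNA, had -1.16, -0.17 and -0.16, and its groups did not overlap. Dhx58 (LGP2), a regulator of such sensors, had log2 levels of 6.98, 6.82 and 6.77 in the controls and 6.51, 6.62 and 6.62 in the mFoxO1KO samples, with ratios of -0.46, -0.20 and -0.14 and a mean of -0.27 ± 0.17 (SD, n = 3 arrays; limma, adjusted p = 0.132). That mean was -0.95 with the processed signals, -0.53 with normexp offset 0 and -0.17 without array 1. Both had their highest control level in sample 1.

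Ddx58 (RIG-I), a sensor of viral RNA ends, had -0.26, 0.00 and -0.16, and Eif2ak2 (PKR), a kinase that halts translation, had -0.48, -0.00 and -0.05. Trim25, a ubiquitin ligase that acts on RIG-I, had 0.07, 0.17 and 0.06. The 4 tested genes of the oligoadenylate synthetase family, known for its part in activating RNase L, were below 0 on array 1 and above 0 on array 2. Oas1a had -0.22, 0.48 and 0.06, Oas2 had -0.08, 0.35 and -0.19, Oasl1 had -0.28, 0.23 and -0.25 and Oasl2 had -0.64, 0.06 and -0.06. All 4 had their highest mFoxO1KO level in sample 2, and Oas1a has close paralogs that may share signal.

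Of the 11 antiviral effectors, 9 had a mean ratio below 0. Ifit1, which binds viral RNA caps, had log2 levels of 8.55, 7.36 and 7.45 in the controls and 6.97, 6.93 and 6.89 in the mFoxO1KO samples. The groups did not overlap, with control 1 highest. The ratios were -1.58, -0.43 and -0.56, with a mean of -0.86 ± 0.63 (SD, n = 3 arrays; limma, adjusted p = 0.112), which was -1.69 with the processed signals and -0.50 without array 1 (limma, adjusted p = 0.0534). Ifit2, another member of that family, had -0.41, -0.33 and -0.12, with a mean of -0.28 ± 0.15 (SD, n = 3 arrays; limma, adjusted p = 0.109), and its groups overlapped. The mean of Ifit2 was -0.95 with the processed signals and -0.48 with normexp offset 0. Ifit3, next to Ifit2 on chromosome 19, had -1.86, -0.20 and -0.33, and its copy Ifit3b may share signal.

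Isg15, a ubiquitin-like protein attached to other proteins, had -1.08, -0.11 and -0.58, with a mean of -0.59 ± 0.49 (SD, n = 3 arrays; limma, adjusted p = 0.139). Usp18, the protease that removes it, had -1.17, -0.00 and -0.22. Bst2 (tetherin), which holds budding virus at the cell surface, had -0.97, -0.12 and -0.47, with a mean of -0.52 ± 0.43 (SD, n = 3 arrays; limma, adjusted p = 0.141). All 3 were lowest relative to control on array 1, and without it the means of Isg15 and Bst2 were -0.34 and -0.30.

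Rtp4 had -1.79, -0.15 and -0.53, Xaf1, a pro-apoptotic protein, had -1.08, 0.02 and -0.24, and Rsad2 (viperin), a radical SAM enzyme, had -0.59, -0.18 and -0.15. Ifi35 had 0.04, 0.18 and 0.15. Isg20, an exonuclease of RNA, was like Ifi35 above 0 on every array. Its levels were 8.39, 8.77 and 8.56 in the controls and 8.96, 9.04 and 8.89 in the mFoxO1KO samples, without overlap. The ratios were 0.57, 0.27 and 0.33, with a mean of 0.39 ± 0.16 (SD, n = 3 arrays; limma, adjusted p = 0.0735; with the array as a replicate block, 0.0349). With separate channels and no replicate block the adjusted p of Isg20 was 0.132 in limma. It was under 0.05 in 3 of the 16 alternative settings that held the gene. A second Isg20 probe gave 0.63, 0.13 and 0.24.

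The Ifitm genes, which lie side by side on chromosome 7 and encode membrane proteins that block viral entry, had mean ratios above 0. Ifitm2 had log2 levels of 10.25, 10.77 and 10.57 in the controls and 10.76, 11.24 and 10.77 in the mFoxO1KO samples, which overlapped. Its ratios were 0.51, 0.47 and 0.20, with a mean of 0.39 ± 0.17 (SD, n = 3 arrays; limma, adjusted p = 0.0758). The mean was 0.60 under median centring (limma, adjusted p = 0.0280), a setting that put the median of all genes at 0.16. With separate channels and no replicate block the adjusted p was 0.293 in limma. Ifitm1 had 0.22, 0.42 and 0.19 without overlap of the levels and with a mean of 0.28 ± 0.12 (SD, n = 3 arrays; limma, adjusted p = 0.0980; 0.50 with the processed signals), and Ifitm3 had 0.05, 0.25 and -0.02. In none of the 3 was control 1 the highest control.

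The letters before the start sites can be set beside the array 1 ratios. The 19 tested members with the response element core in their window had a median log2 ratio of -1.08 on array 1, and 11 were over 2-fold lower. The 14 without it had a median of -0.29, and 4 were over 2-fold lower. The tested members with no window are left out here. Among them Iigp1 (-3.71), Gbp4 (-2.04), Rtp4 (-1.79) and Usp18 (-1.17) were over 2-fold lower on array 1, and Dhx58 and Oas2 were not. On arrays 2 and 3 the medians were -0.12 and -0.26 with the motif and 0.18 and -0.00 without it. For TTCNNNGAA the array 1 medians were -0.48 with a match (13 members) and -0.83 without (20 members). Bst2 and Ifitm3, which also had both motifs next to each other or overlapping, had array 1 ratios of -0.97 and 0.05.

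**Figure D4:**
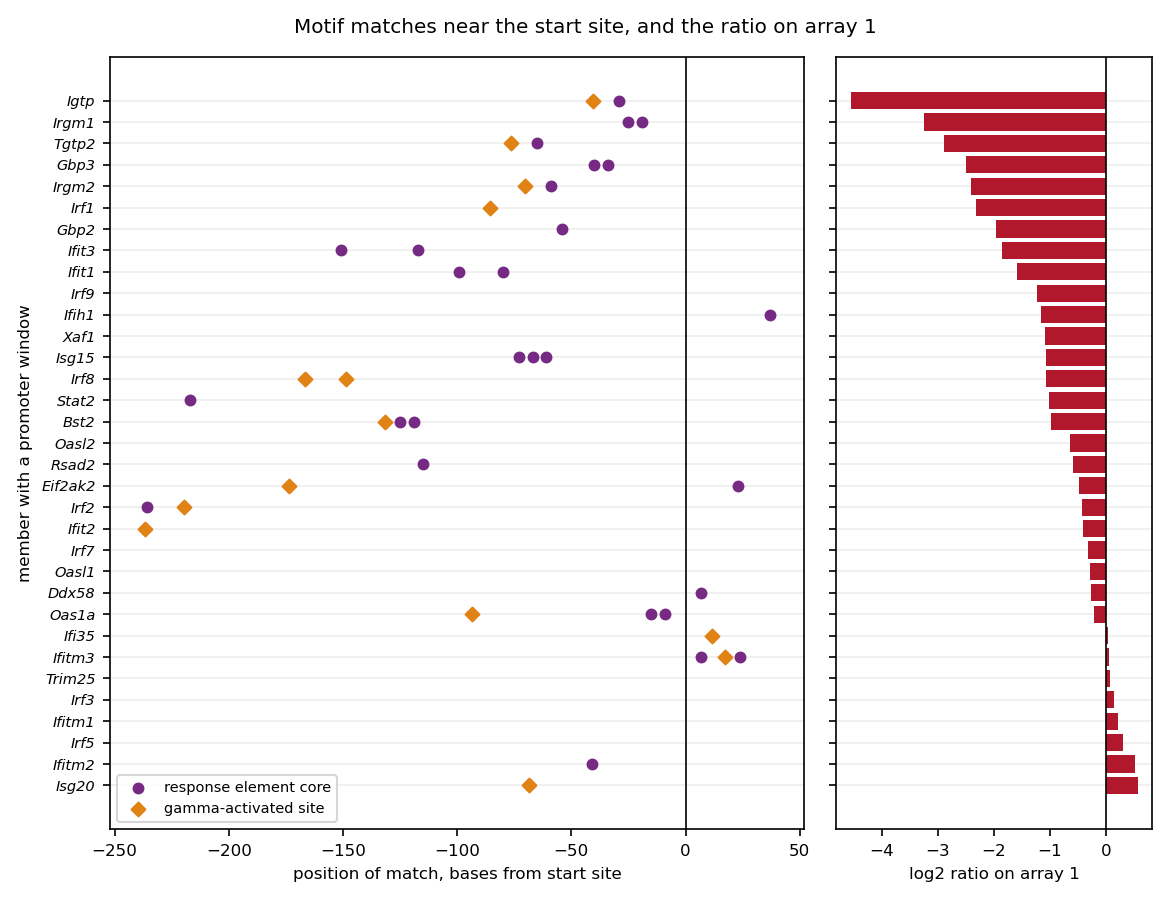
Positions of the response element core and the gamma-activated site (bases from the start site, left) in the 33 tested members with a window, ordered by their log2 ratio on array 1 (right). Igtp, Tgtp2, Irgm2, Bst2 and Ifitm3 show both motifs next to each other or overlapping, with ratios from -4.55 (Igtp) to 0.05 (Ifitm3).

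Other genes of the pathway were taken from lists of ligands, receptors, regulators, sensors and further targets. Of 117 listed genes, 88 were tested and 2 passed in limma, both higher. Among all genes 2.75% passed in either direction and 2.06% passed as higher. The 2 were Sp110, a nuclear body protein, and Ifi30, a lysosomal thiol reductase. Their mean log2 ratios were 0.68 and 0.55 (limma, adjusted p of 0.0485 and 0.0492). Of the 13 ligand genes only Ifnl3 was tested, and Ifnb1 and Ifng were among those not tested. Neither the 10 receptor, JAK and STAT genes nor the 10 negative regulators held a call. In the first list Ifngr1 and Ifnar2, receptor chains, had the smallest p, with means of 0.40 and 0.43. In the second these were Ptpn1 (0.20), a phosphatase, and Socs3 (0.65), a suppressor of cytokine signalling.

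None of the 11 sensors and adaptors passed, with Ticam1 (0.24) and Myd88 (0.15), adaptors of Toll-like receptors, at the smallest p, and none of the 5 other IRF-related genes passed, with Irf2bp2 (0.59) and Irf4 (1.54) at the smallest p. The 51 further targets that were tested had array medians of -0.75, -0.06 and -0.14. Control 1 was more than 2-fold above both other controls for 15 of them. The list of further targets therefore had its lowest median on array 1, as the members did. Its genes did not all move alike. The ratio was below 0 on all 3 arrays for 27 of the 51 (24.5% of all genes) and above 0 on all 3 for 6 (27.9% of all genes).

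Markers of other cells were read from the same samples. Of the 12 macrophage markers 9 were tested, and control 1 was the highest control for 7 of them, against 34.8% of all genes. Control 1 was more than 2-fold above both other controls for 1 of the 9 (0.395% of all genes). The levels of the 9 were summed on the linear scale. The log2 of that sum was 11.85, 11.65 and 11.34 in the controls and 11.74, 12.10 and 11.91 in the mFoxO1KO samples. Summed levels of the other marker lists are given in the same way, so the brightest genes weigh most. Cd14 passed, with a mean ratio of 0.95 (limma, adjusted p = 0.0452), and Cd68, Cd163 and Cx3cr1 were not tested. The array medians of the 9 tested markers were -0.05, 0.61 and 0.58, so array 1 was the lowest here too, at a level near 0.

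Of the 10 lymphocyte markers 4 were tested, with summed levels of 10.28, 10.10 and 10.31 in the controls and 10.22, 10.20 and 10.31 in the mFoxO1KO samples; Cd3d, Cd3g, Cd8a, Cd79a and Ms4a1 were among those that did not pass the filter. Leukocyte and dendritic markers had 3 of 8 tested, without Ptprc, and neutrophil markers 3 of 8. Adipocyte markers had medians of 3.01, 0.21 and 1.96 on the arrays with 0 of 8 passing in limma (7 at an unadjusted p under 0.05), and their summed level was lowest in control 1 (15.31, against 16.55 and 15.98). Red cell markers, with 4 of 6 tested and none passing in limma (0 at an unadjusted p under 0.05), were also lowest in control 1 (14.83, against 16.17 and 15.66), with array medians of 0.92, 0.05 and -0.29. Endothelial and fibroblast markers had array medians of 0.23, 0.03 and 0.09 and of 0.29, 0.09 and 0.13, with no call among 10 and 7 tested (limma, 2 of each at an unadjusted p under 0.05). In bulk muscle, fewer cells of a type and less RNA per cell cannot be told apart, and the part of these cells in the members' values was not tested. Mb, the myoglobin gene, was the muscle marker that passed, with a mean ratio of 0.57 (limma, adjusted p = 0.0448).

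**Figure D5:**
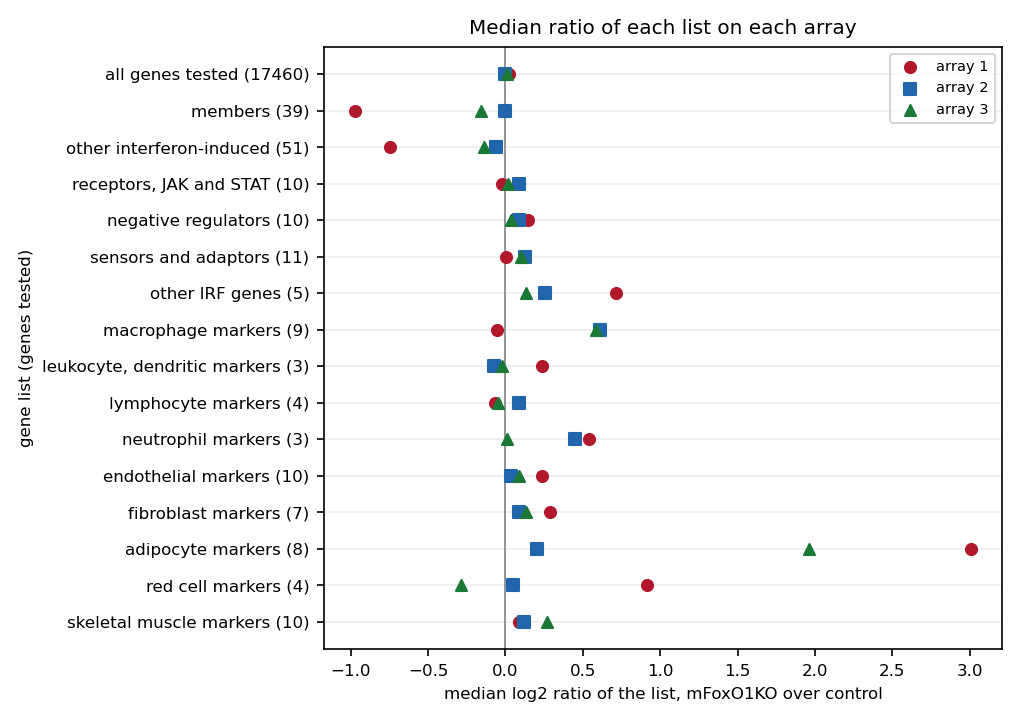
Median log2 ratio of mFoxO1KO over control (x axis) on each array for all genes, the members, the pathway lists with more than 1 tested gene and the marker lists (y axis, number tested in brackets). The members and the further interferon-induced genes have array 1 medians of -0.97 and -0.75, and the adipocyte markers have 3.01.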

How the data were processed

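Lower-limb muscle RNA (0.2 µg) was labelled with a two-colour low-input kit, control in Cy3 and mFoxO1KO in Cy5, per the labels. The deposited files hold the scanner's median spot and background intensity in both channels, per the file headers. They also hold processed intensity values and a log10 ratio, which the authors' Feature Extraction software computed (11.5.1.1 per the file headers, 9.3.2.1 per the submitters' processing notes). The deposited log10 ratio matched the ratio of processed intensities within 0.001 for every gene tested, and was not used separately. Over all spots it was 0 in place of that ratio in 29185 of 129060 values.

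In limma 3.58.1 (R 4.3.3), background was corrected with normexp (offset 50; median signals, as no mean signal was among the columns used) and each array by loess fitted without the control spots. Between 281 and 319 spots per array marked as non-uniform or outliers were left out. A probe was kept if well above background (a share of at least 0.5 of its spots) in the same channel on all 3 arrays, and the brightest probe stood for its gene. Log2 ratios were tested against 0 (lmFit, eBayes, two-sided) with Benjamini-Hochberg adjustment over 17460 genes at 0.05. Levels per sample came from loess and Aquantile. Symbols came from matching accessions to RefSeq GRCm38.p6 (27508 of 39429 probes, 69.8%). The fit was run on simulated ratios that held no shift of a single array and no dye effect, so those were not tested.

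The shared array pairs the samples: deviations of samples on 1 array correlated at 0.39, 0.42 and 0.45 over genes. All arrays were on 1 slide. Replicates are labelled as biological. The number of arrays limits the precision. Every member is named, with full statistics for the 12 smallest p. Of other pathway genes, those past the threshold and the 2 with the smallest p in a list are named. Among markers, those past the threshold and those not tested are named. Cxcl9, Cxcl10, Ifi27l2a, Socs1 and the marker Myh2 were named besides, after their values were seen. The members and lists were chosen with earlier results of these data known. The alternatives covered background, signals, normalisation, filter, probe choice, variance model, channels and each array left out.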

Additional observations from a re-analysis of the deposited data

How the results depend on the processing

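Across 17 alternative settings the members' median log2 ratio stayed below 0, from -0.52 (processed signals) to -0.11 (without array 1). The count of members called (0) was 6 with median centring, 3 with scale normalisation between arrays, 2 with the array as a replicate block, and 0 to 3 when an array was left out. The count of all genes called (481) was 133 with normexp offset 0, 200 with processed signals, 1205 with median centring, 830 with scale normalisation, 55 with probes above background in both channels, 746 without a filter, 9 among genes above the median intensity, 216 with separate channels and no replicate block, 1649 with that block, and 49 to 405 when an array was left out. It was 405 without array 1, 49 without array 2 and 157 without array 3. The cause of these shifts was not tested. Some settings also held fewer arrays or fewer genes, such as 16312 genes with probes above background in both channels. Of the 12 members with the smallest p, none turned sign under any setting run. Without array 1, 6 other members did: Irf3, Irf7, Irf8, Irf9, Irgm2 and Oasl2. Signal over background limits the dim members, since median control signals were 90.5 to 97 against backgrounds of 35.5 to 38.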

Other observations

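The level pattern of control 1 was shared by genes outside the lists, named here after their values were seen. In all, 69 of 17460 genes had a level in control 1 more than 2-fold above both other controls: 15 members, 17 from the pathway lists and 37 from neither, of which 25 had a symbol. The lists do not hold every interferon-induced gene. Gbp10, of the guanylate-binding protein family, was among the 37. Gm4841 had log2 levels of 16.70, 8.92 and 9.07 in the controls and 12.05, 9.36 and 8.68 in the mFoxO1KO samples, and its ratio on array 1 was the lowest of all genes at -4.65. Cd274, which encodes the checkpoint ligand PD-L1, had 12.11, 8.23 and 7.83 in the controls and 9.59, 7.72 and 7.71 in the mFoxO1KO samples. Batf2, a leucine zipper factor, had 8.86, 6.84 and 6.77 and then 6.61, 6.65 and 6.58. H2-Ab1, a class II antigen-presentation gene, had 12.66, 11.39 and 11.04 and then 11.63, 11.84 and 11.03.

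Some genes of the lists were also picked after their values were seen. The chemokine genes Cxcl9 and Cxcl10 had control levels of 9.42, 7.21 and 7.26 and of 9.90, 6.60 and 6.93. For Cxcl10 the ratios were -2.37, 0.70 and 0.66, so array 1 and the other arrays had opposite signs. Ifi27l2a, from the list of further targets, went the other way on array 1, with ratios of 2.72, 0.24 and 0.71. Its level was lowest in control 1 among the controls (11.74, against 13.08 and 12.43). Socs1, a feedback inhibitor of JAK kinases, was high in both samples of array 1, with 8.99, 7.06 and 6.79 in the controls and 9.12, 6.97 and 6.62 in the mFoxO1KO samples. Myh2, a myosin of fast oxidative fibres, also had its highest control level in sample 1 (13.38, against 11.94 and 11.33), with ratios of -1.69, -0.34 and 1.36. Of the 40 genes with the lowest ratios, 11 on array 1, 1 on array 2 and 2 on array 3 were members, and 9, 0 and 0 were other pathway genes.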
